A study of Mus musculus with 66 samples.

Results

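Cholesterol synthesis and its regulation were followed in the developing mouse testis through 7 genes. The members were the 5 enzyme genes Hmgcs1, Idi1, Fdps, Sqle and Cyp51 and the 2 regulator genes Srebf2 and Insig1. They were found as every probe set whose annotation named 1 of these genes alone, which gave 16 probe sets of 36899 on the arrays. RNA came from whole testes of BL/6-129 mice on days 0, 3, 6, 8, 10, 14, 18, 20, 30, 35 and 56 after birth. Each day had 2 numbered samples on each of 3 array types called A, B and C, for 66 arrays, and the labels name no treatment or mutation. The labels do not state that a number marks the same RNA on all 3 types. Nothing in them tells separate animals from pools, so p-values measure only the spread between these samples, which may be technical.

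Cholesterol is built from acetyl-CoA in a long chain of steps. The first part makes isoprenoid units and joins them into farnesyl diphosphate, and the second part joins farnesyl units into squalene and closes and trims the ring. The transcription factor SREBP-2, the product of Srebf2, turns on nearly all of these genes when membrane sterol is low, and INSIG-1 holds its precursor in the endoplasmic reticulum when sterol is high. In the testis, Leydig cells turn cholesterol into androgens, and germ cells make the sterol intermediate FF-MAS, the product of CYP51, which is known as a meiosis-activating sterol.

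Promoter sequences are shown for the 4 members with a tested probe set and an entry in the RefSeq promoter table, because SREBP acts through short sites near the start of its targets. Each run is the 250 bases before the annotated start on mouse build GRCm38.p6, written 5′ to 3′ on the gene's strand. Capitals mark the sterol regulatory element searched as TCACNCCAC and the NF-Y box CCAAT, each on both strands, so that ATTGG is a CCAAT on the other strand. Hmgcs1 lies on the plus strand at chr13:119690101-119690350, Idi1 on the plus strand at chr13:8885356-8885605, Cyp51 on the minus strand at chr5:4104698-4104947 and Insig1 on the plus strand at chr5:28071162-28071411.
Hmgcs1: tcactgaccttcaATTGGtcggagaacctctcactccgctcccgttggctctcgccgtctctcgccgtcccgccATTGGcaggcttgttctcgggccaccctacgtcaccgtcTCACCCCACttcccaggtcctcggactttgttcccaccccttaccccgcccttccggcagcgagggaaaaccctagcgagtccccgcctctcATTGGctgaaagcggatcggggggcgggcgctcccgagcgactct
Idi1: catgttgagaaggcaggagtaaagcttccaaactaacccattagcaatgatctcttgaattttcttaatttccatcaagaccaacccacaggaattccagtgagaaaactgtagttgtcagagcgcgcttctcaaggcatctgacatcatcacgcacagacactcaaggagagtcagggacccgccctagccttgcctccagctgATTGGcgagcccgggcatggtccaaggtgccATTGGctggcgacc
Cyp51: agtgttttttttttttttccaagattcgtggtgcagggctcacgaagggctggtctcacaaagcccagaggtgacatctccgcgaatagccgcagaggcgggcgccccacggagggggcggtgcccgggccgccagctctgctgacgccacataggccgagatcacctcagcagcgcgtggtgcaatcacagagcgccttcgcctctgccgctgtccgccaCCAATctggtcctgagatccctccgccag
Insig1: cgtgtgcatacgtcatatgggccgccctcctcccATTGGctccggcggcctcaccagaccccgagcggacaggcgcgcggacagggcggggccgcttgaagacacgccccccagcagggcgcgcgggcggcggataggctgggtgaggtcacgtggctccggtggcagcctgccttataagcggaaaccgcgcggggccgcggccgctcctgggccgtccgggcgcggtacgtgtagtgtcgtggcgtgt
Hmgcs1 alone of the 5 members with an entry held a match to TCACNCCAC, from base -137 to base -129 before the start, and 1.05% of 32851 promoter windows of the same length held one. The NF-Y box was found 3 times in Hmgcs1, 2 times in Idi1 and 1 time each in Cyp51, Srebf2 and Insig1, against 33.8% of all windows with at least 1. The GC box GGGCGG, another common promoter motif, was found 2 times in Hmgcs1, 1 time each in Idi1 and Cyp51, 4 times in Srebf2 and 3 times in Insig1, against 32.7% of all windows with at least 1. No member window held the full cAMP response element TGACGTCA, which 1.55% of windows held. Matches are descriptions of letters and were not tested as sites. Fdps and Sqle had no entry.

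Values are linear signals that the authors scaled to a mean of 125 per array, and no calls of detection were used. Of the 16 member probe sets, 12 were kept for testing because 2 or more of their 22 arrays read 50 or higher, as were 26941 probe sets in all. Hmgcs1, Idi1, Fdps, Sqle, Cyp51 and Insig1 each had at least 1 of these 12. The lead probe set of a gene is the one with the highest mean signal. Early days are days 0 to 10 with 10 samples, middle days are days 14 to 20 with 6 samples, and late days are days 30 to 56 with 6 samples. Changes are on the log2(signal + 16) scale with the SE of a limma fit, p-values were adjusted over all 26941 probe sets by the Benjamini-Hochberg method, and a change was called where the adjusted p was under 0.05 and the size at least 2-fold. Only a called change is written as a rise or a fall. Levels of different probe sets are not comparable.

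The 2 samples of a day correlated between 0.830 and 0.980 over probe sets of an array type. The difference between sample 1 and sample 2 was compared between array types over the genes measured on both. At day 20 it ran opposite ways on types A and B, with a correlation of -0.48, and on types A and C (-0.29), and the same way on types B and C (0.29). Day 0 gave -0.29, -0.21 and 0.23 and day 18 gave -0.24, -0.16 and 0.20, so type A was the one that differed. The other days lay between -0.12 and 0.10. Member values without days 0 and 20 are given where they move a call or a size.

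Between early and late days, 3 of the 12 member probe sets were called, against 29.6% of all probe sets tested. Hmgcs1 and Insig1 fell, against 17.9% of all probe sets called lower, and 1 of 2 Idi1 probe sets rose, against 11.7% called higher. Insig1 read under 50 in all late samples, so it passed the filter only through earlier days. The share of called members lies near the background, so what follows describes each gene and not an excess of changes. The typical probe set was not still: the median change over all probe sets was -0.26, and scaling each array to its median moved it to -0.03. In whole testis RNA, fewer cells of a type and less RNA per cell cannot be told apart.

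**Figure D1:**
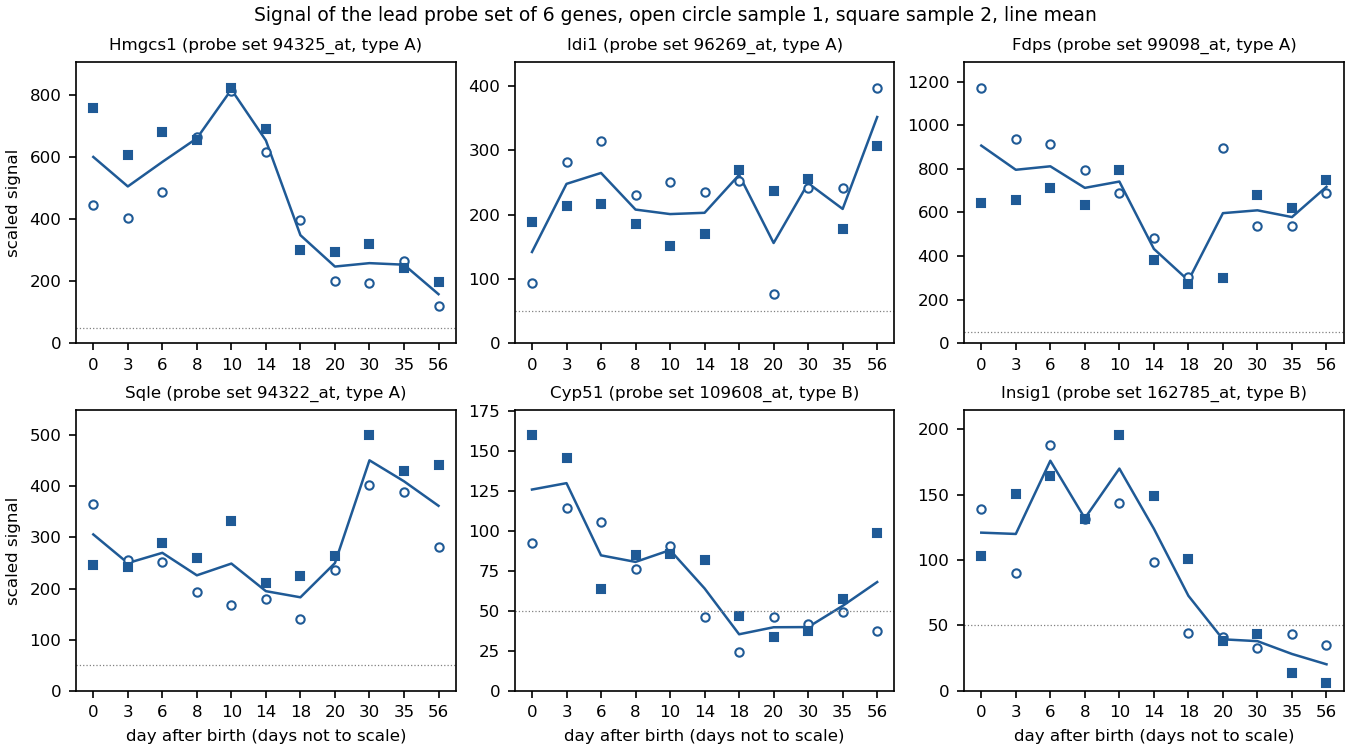
Scaled signal of the lead probe set of 6 member genes (vertical axis, linear, from 0) against day after birth (horizontal axis, days evenly spaced and not to scale), with open circles for sample 1, squares for sample 2, a line for their mean and a dotted line at a signal of 50. Hmgcs1 and Insig1 are high up to day 14 and low from day 20 on, while the 6 late samples of Sqle lie between 281.7 and 499.8, above all 6 middle samples.

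Hmgcs1 encodes the cytosolic HMG-CoA synthase, which joins acetyl units at the entry to the pathway. Its signal was lowest at 403.2, at a median of 660 and highest at 822.7 over the early samples. Over the middle samples it ran from 200.4 through a median of 348 to 689.9, and over the late samples from 119.3 through 220 to 320.2. Early and late samples did not overlap, which 30.4% of all probe sets also showed in either direction, and the middle samples reached into both. Hmgcs1 fell by 1.46 on the log2 scale from early to late days (SE 0.16, adjusted p = 3.57e-07), and by 1.24 (adjusted p = 1.04e-06) with median scaling.

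Most of this difference lay between days 14 and 20. Both day 14 samples, at 617.0 and 689.9, stood within the early range, day 18 read 395.9 and 300.9, and day 20 read 200.4 and 293.1. From early to middle days the change was -0.67 ± 0.16 (SE, adjusted p = 0.00298) and from middle to late days -0.79 ± 0.18 (adjusted p = 0.00195), both under 2-fold and so not called. Without days 0 and 20 the second of these was -1.10, past 2-fold, and the first was -0.39 with an adjusted p of 0.101. By day mean, the highest level was day 10 at 817 ± 7.64 (SD, n = 2) and the lowest day 56 at 158 ± 54.8. Of the 10 pairs of neighbours in the order of day means, 3 did not overlap: days 56 and 20, days 18 and 3, and days 8 and 10.

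Idi1 encodes isopentenyl diphosphate isomerase, which interconverts the 2 five-carbon building blocks of all isoprenoids. Its 2 probe sets gave different answers. On array type B, probe set 164172_at ran from 67.9 through a median of 102 to 156.2 early, from 54.8 through 120 to 174.9 in the middle and from 169.1 through 241 to 297.9 late. All 6 late samples lay above all 10 early samples, which 12.4% of all probe sets also showed. Idi1 rose by 1.05 ± 0.19 on this probe set from early to late days (SE, adjusted p = 1.19e-04).

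That call stood close to the 2-fold line. The change was 0.95 without days 0 and 20, 0.98 without sample 1 of day 30 or of day 35, and just under 2-fold without sample 1 of day 8, in each case below the line with an adjusted p under 0.05. The lead probe set of Idi1, 96269_at on type A, ran from 94.3 through 215 to 314.8 early and from 177.5 through 249 to 397.5 late, with overlapping samples. Its change was 0.34 ± 0.20 (adjusted p = 0.158), and it passed the adjusted p alone with median scaling (0.56, adjusted p = 0.0127). Its highest day mean was day 56, at 352 ± 63.9 (SD, n = 2), and no neighbours in its order of days were separate.

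At day 20 the 2 Idi1 probe sets pointed opposite ways between samples. Type A read 75.9 in sample 1 and 236.5 in sample 2, and type B read 174.9 in sample 1 and 54.8 in sample 2. The cause was not tested.

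Fdps encodes farnesyl diphosphate synthase, which makes the branch point metabolite between sterols and the other isoprenoids. Its lead probe set, 99098_at, ran from 632.2 through a median of 753 to 1172.2 early, from 274.0 through 341 to 894.4 in the middle and from 536.3 through 652 to 749.0 late. The value of 894.4 was sample 1 of day 20, and sample 2 of that day read 300.2. Apart from that sample, all middle samples lay below all early and all late samples. With it, the middle samples overlapped both groups. The share of all probe sets that separate in this way without 1 sample was not tested. The change from early to middle days was -0.93 ± 0.19 (SE, adjusted p = 9.82e-04), not called at 2-fold, and it was -1.19 without sample 1 of day 20 and -1.07 without days 0 and 20, past 2-fold in both. From middle to late days it was 0.63 ± 0.21 (adjusted p = 0.0268), and 0.89 without that sample. Early and late days differed by -0.30 ± 0.19 (adjusted p = 0.192).

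The other 5 Fdps probe sets were of mixed use. Probe set 160424_f_at, at 256.7 to 616.3 over all samples, was lower in the middle days by -0.55 ± 0.15 (adjusted p = 0.00909) and in the late days by -0.47 ± 0.15 (adjusted p = 0.0128), both under 2-fold, and neither passed with median scaling. Probe sets 162281_at and 165982_i_at were dim, at 50 or more on 3 and 5 of 22 arrays, none of them early, so they passed the filter only through the later days. Their values of 0.83 ± 0.19 and 0.89 ± 0.30 from early to late days are therefore given without weight. The other two, 162217_r_at and 168632_at, reached 20.5 and 34.2 at most and were not tested. No Fdps probe set had a called change in these 3 comparisons.

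**Figure D2:**
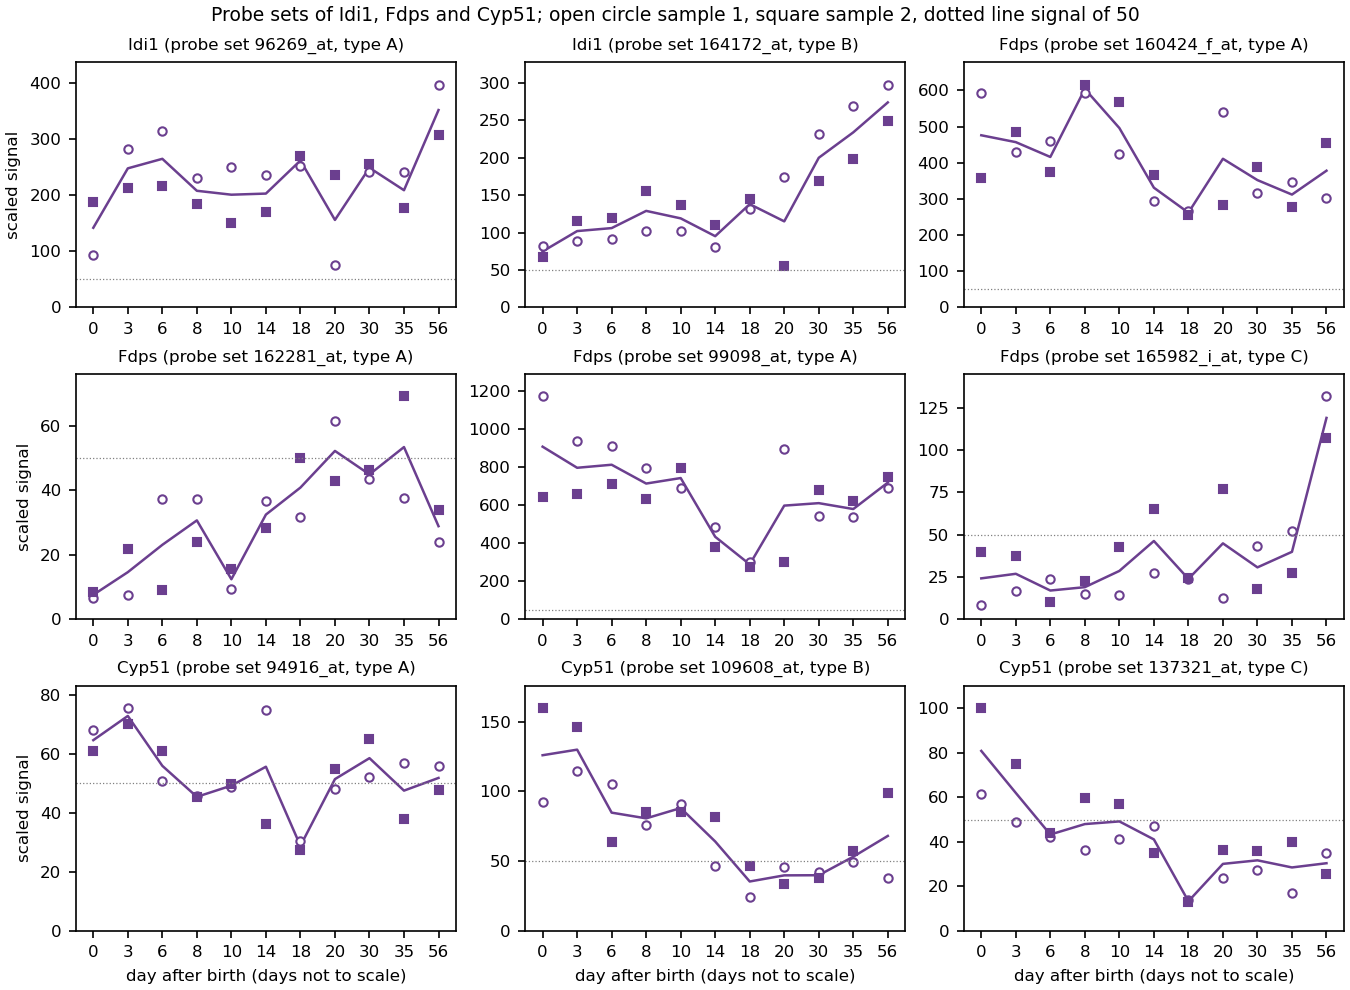
Scaled signal (vertical axis, linear, from 0) against day after birth (horizontal axis, days evenly spaced) for the 9 tested probe sets of Idi1, Fdps and Cyp51, with open circles for sample 1, squares for sample 2, a line for their mean and a dotted line at 50. At day 20 the 2 samples lie in opposite order on the 2 Idi1 probe sets, and those of Fdps 99098_at lie apart at 894.4 and 300.2.

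Sqle encodes squalene epoxidase, which carries out the first oxygen-using step of the sterol branch and is a slow step of the pathway. On its only probe set, 94322_at, the signal ran from 167.2 through a median of 254 to 366.3 early, from 141.0 through 219 to 264.5 in the middle and from 281.7 through 416 to 499.8 late. All 6 late samples lay above all 6 middle samples, which 6.48% of all probe sets also showed, and the early samples reached into both ranges. The change from middle to late days was 0.92 ± 0.17 (SE, adjusted p = 4.88e-04), just under 2-fold and so not called. It was 1.05 without days 0 and 20 and 1.01 with median scaling, past 2-fold in both. From early to late days it was 0.63 ± 0.16 (adjusted p = 0.00218), also not called.

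By sample, day 20 read 235.5 and 264.5, day 30 read 402.5 and 499.8, day 35 read 389.9 and 430.5, and day 56 read 281.7 and 442.0. The step from day 20 to day 30 was 0.81 ± 0.30 (adjusted p = 0.142), which did not pass with 2 samples a day. No step between neighbouring days was called for any member probe set, against 0.847% of all 269410 steps tested. Over all 11 days the F-test of Sqle passed with an adjusted p of 0.0273, and leaving out sample 1 of day 14 or either sample of day 30 or 35 took it to between 0.0535 and 0.0895.

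Cyp51 encodes lanosterol 14-alpha-demethylase, whose product is FF-MAS. Its 3 probe sets all read low, with a highest signal of 159.9. On the lead probe set, 109608_at of type B, the signal had a median of 91.7 and a highest value of 159.9 early. It ran from 24.1 through 46.2 to 81.8 in the middle and from 37.6 through 45.6 to 98.6 late. The highest late value was sample 2 of day 56, and sample 1 of that day was the lowest. The change from early to middle days was -0.93 ± 0.20 (SE, adjusted p = 0.00131) and from early to late days -0.77 ± 0.20 (adjusted p = 0.00276), both under 2-fold.

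A second Cyp51 probe set, 137321_at of type C, read 50 or more on 5 arrays, all of them early, so it passed the filter only through the early days. Its values of -0.74 ± 0.20 and -0.63 ± 0.20 for these comparisons are therefore given without weight. The third, 94916_at of type A, gave -0.30 ± 0.13 (adjusted p = 0.0919) and -0.10 ± 0.13 (adjusted p = 0.539). Day 18 had the lowest mean on all 3, at 35.4, 13.3 and 28.8. From middle to late days the 3 changes were 0.16, 0.10 and 0.20, none past the adjusted p, so no late increase of Cyp51 was detectable in these data.

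**Figure D3:**
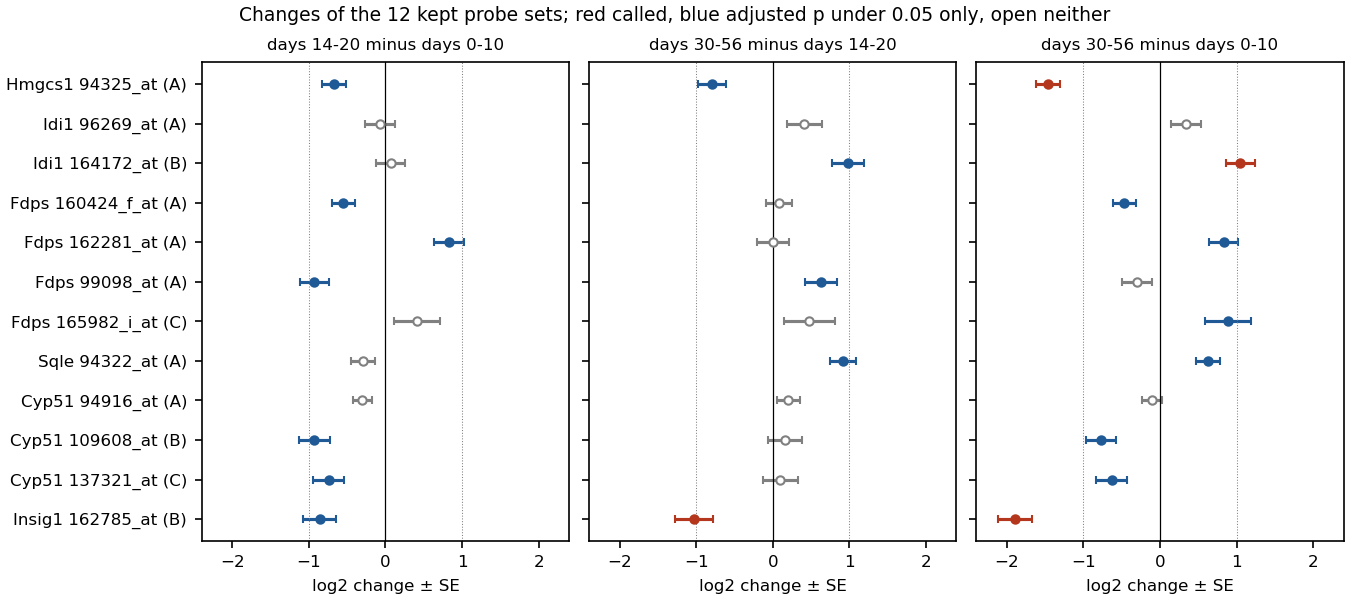
Change on the log2(signal + 16) scale (horizontal axis) with its SE (bars) for the 12 tested member probe sets (vertical axis, array type in brackets) in 3 comparisons of early (days 0 to 10), middle (days 14 to 20) and late (days 30 to 56) samples. Red marks called changes, blue an adjusted p under 0.05 alone and open grey neither, and dotted lines mark 2-fold; Hmgcs1 and Insig1 lie left of the lower line and Idi1 164172_at right of the upper one between early and late days.

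Insig1 encodes INSIG-1, which keeps SCAP and SREBP in the endoplasmic reticulum and is itself a target of SREBP. Its lead probe set, 162785_at of type B, ran from 90.1 through a median of 141 to 195.4 early, from 38.0 through 71.4 to 148.9 in the middle and from 5.8 through 33.8 to 43.5 late. Early and late samples did not overlap, which 30.4% of all probe sets also showed in either direction. All 10 early samples, 3 middle samples and no late sample read 50 or more. The probe set therefore passed the filter only through early and middle days, and the size of its change depends on the added 16. The p-values of Insig1 carry these limits. Insig1 fell by 1.89 on the log2 scale from early to late days (SE 0.22, adjusted p = 7.65e-07), and the change lay between -2.10 and -1.69 when each sample was left out in turn. It was -2.51 with 1 added to the signal and -1.16 with 64 added.

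As with Hmgcs1, day 14 still read within the early range at 98.2 and 148.9, day 18 read 44.6 and 100.7, and day 20 read 40.8 and 38.0. Insig1 was the only member called from middle to late days, at -1.03 ± 0.25 (adjusted p = 0.00315), against 13.1% of all probe sets called. This call was at the 2-fold line. Without sample 2 of day 14, 18, 35 or 56 it was -0.94, -0.88, -0.86 and -0.83, without sample 1 of day 30 it was -0.98, and with median scaling -0.94, each under 2-fold with an adjusted p under 0.05. From early to middle days the change was -0.86 ± 0.22 (adjusted p = 0.00571), and no member was called there, against 10.7% of all probe sets. The second Insig1 probe set, 92396_at of type A, read between 1.3 and 13.6 and was not tested.

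Srebf2 was carried by 1 probe set, 112335_at of type B, which read between 1.7 and 34.8 and reached 50 on no array. It was not tested. Its early samples ran from 1.8 to 17.8, its middle samples from 1.8 to 16.6 and its late samples from 1.7 to 34.8, so the groups overlapped throughout, and these signals do not show whether Srebf2 RNA was present.

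Over all 11 days, 7 of the 12 member probe sets passed the F-test, against 45.0% of all probe sets. One of the 7 was the dim Fdps 162281_at, which carries no weight here. The others were Hmgcs1 (adjusted p = 5.86e-05), Insig1 (2.80e-04), Idi1 164172_at (0.0142), Cyp51 109608_at (0.0233), Sqle (0.0273) and Fdps 99098_at (0.0464). The last 4 are near the line. Fdps 99098_at reached 0.174 and Cyp51 109608_at 0.0626 with median scaling, Idi1 164172_at reached 0.0555 without sample 1 of day 56, and Fdps 99098_at missed the line in 17 of the 22 fits that left out 1 sample, at up to 0.187. No member was called between days 30 and 35 and day 56, where 0.0223% of all probe sets were, or between day 0 and days 6 to 10, where 2.90% were.

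Whether the enzymes parted from each other was tested as the ratio of 2 lead probe sets on the same array, early against late, with an exact two-sided permutation test over 8008 regroupings of the 16 samples, adjusted over 7 pairs. A ratio within an array does not depend on how that array was scaled, apart from the added 16. The smallest p these samples allow is 1.25e-04, and 6 of 7 pairs passed after adjustment. The regroupings treat the 2 samples of a day as separate units, and whole days were not regrouped, so these p-values may be too small. How many pairs of other genes would pass was not tested. The members were chosen with earlier results of these data known, and Insig1 passed the filter only through earlier days. The count of pairs is therefore given without weight, and the ratios below are descriptions of these genes.

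Hmgcs1 moved down against Sqle in every late sample. The log2 ratio of Hmgcs1 to Sqle lay between 0.27 and 2.18 over the 10 early samples and between -1.14 and -0.54 over the 6 late samples. The difference of means was -2.09 (exact permutation p = 1.25e-04, adjusted 4.37e-04). Hmgcs1 also moved down against Idi1 96269_at, by -1.80 (exact permutation p = 1.25e-04, adjusted 4.37e-04), and against Fdps 99098_at, by -1.16 (exact permutation p = 0.00275, adjusted 0.00481).

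Among the other three enzymes on type A, Fdps moved down against Sqle by -0.92 (exact permutation p = 3.75e-04, adjusted 8.74e-04). Idi1 moved up against Fdps by 0.64 (exact permutation p = 0.0152, adjusted 0.0178), a difference that missed the line without sample 1 of day 56 (0.55, adjusted permutation p = 0.0637). Idi1 and Sqle differed by -0.28 with wide spread (exact permutation p = 0.413), which does not show that they moved alike. On type B, Cyp51 moved up against Insig1 by 1.12 (exact permutation p = 0.00662, adjusted 0.00927), with the highest late ratios of 2.39 and 1.32 in sample 2 of days 56 and 35, where Insig1 read 5.8 and 13.3. Because those signals are so low, the size rests on the added constant: it was 1.56 with 1 added and 0.67 with 64 added, and it passed in both (adjusted permutation p = 0.00787 and 0.0128).

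**Figure D4:**
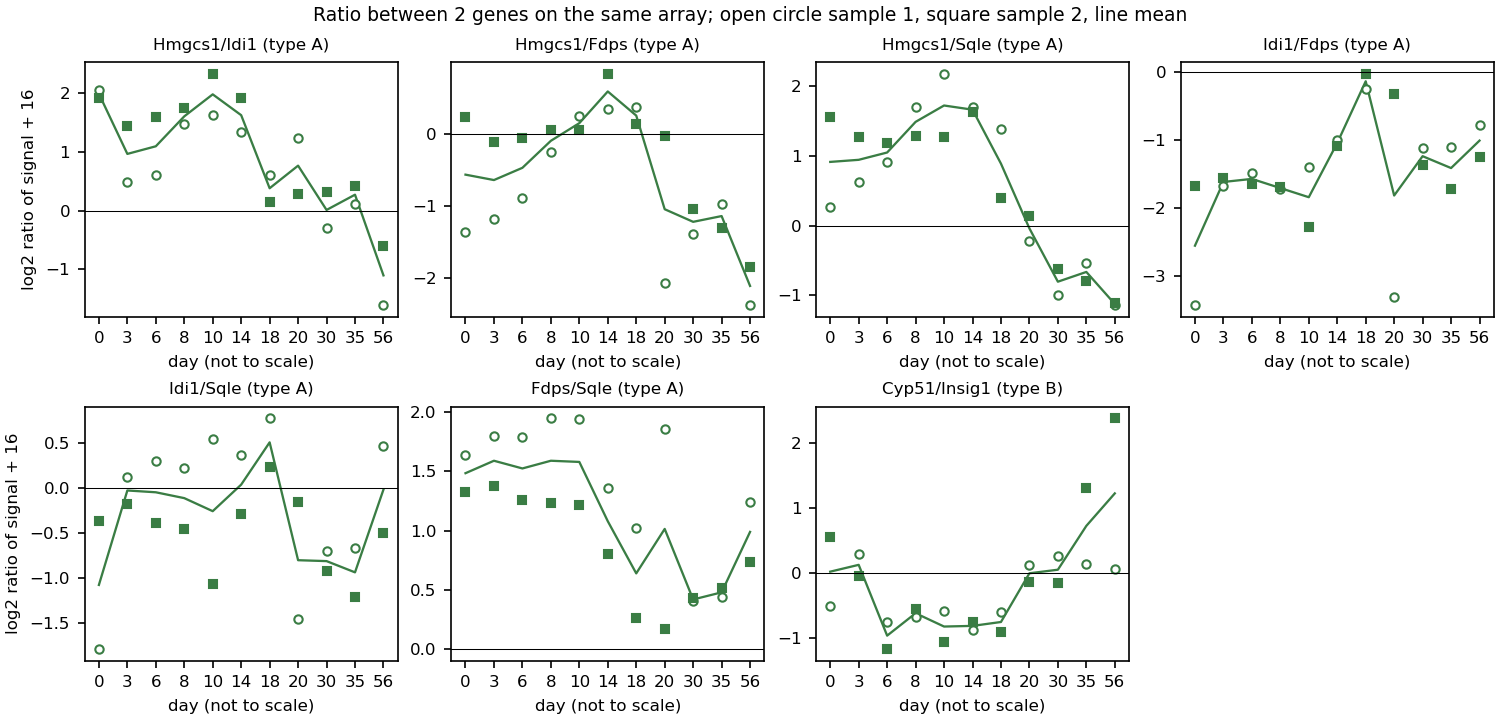
Log2 ratio of signal + 16 between 2 genes on the same array (vertical axis) against day after birth (horizontal axis, days evenly spaced), with open circles for sample 1, squares for sample 2 and a line for their mean. The Hmgcs1/Sqle ratio is above 0 in all early samples and below 0 in all late samples, while the Idi1/Sqle ratio overlaps between them.

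The rest of the pathway was read from a list of 22 enzyme genes, of which 19 had a tested probe set. By lead probe set from early to late days, 1 rose, 2 fell and 16 were not called, against 14.9% of all genes higher and 20.6% lower. By the adjusted p alone, 3 were higher and 8 lower, against 24.4% and 41.6% of all genes. The median change of the list was -0.40, against -0.24 over all genes.

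The gene that rose was Fdft1, which encodes squalene synthase, the step just before Sqle. Its signal ran from 217 through a median of 229 to 384 early, from 172 through 323 to 638 in the middle and from 972 through 1178 to 1261 late. All late samples stood above all others. Of all probe sets, 12.4% had late samples above all early ones and 6.48% above all middle ones. Fdft1 rose by 2.15 ± 0.14 from early to late days (SE, adjusted p = 3.33e-10) and by 1.83 ± 0.15 from middle to late days (adjusted p = 5.40e-08). By lead probe set, Fdft1 was the only one of the 19 called in that later interval, against 16.5% of all genes. Another probe set of Pmvk, 166410_i_at, was called lower there, at -1.04 ± 0.37 (SE, adjusted p = 0.0363).

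Besides Hmgcs1, the gene that fell was Nsdhl, which acts in the removal of the methyl groups at carbon 4. It fell by 1.29 on the log2 scale on its lead probe set (SE 0.17, adjusted p = 4.98e-06). With median scaling the value was -0.96, under 2-fold, and its other 4 probe sets ranged from -0.90 to -0.45, all under 2-fold. Of the genes past the adjusted p alone, Sc5d was higher at 0.68 ± 0.26, and Pmvk, Msmo1, Ebp, Hsd17b7 and Mvk were lower at -0.89, -0.92, -0.60, -0.45 and -0.39. Other probe sets did not pass for Pmvk (0.05 and -0.22), Msmo1 (-0.36) and Mvk (0.14), while that of Hsd17b7 did (-0.87). Sc5d read low, at 9.9 to 67.3 early, and its other probe sets gave 0.36 (adjusted p = 0.154) and 0.53 (adjusted p = 0.0198). For Mvd, mevalonate diphosphate decarboxylase, the lead probe set gave -0.47 ± 0.20 (adjusted p = 0.0529) and the other one, 160770_at, fell by 1.44 (SE 0.20, adjusted p = 6.21e-06).

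**Figure D5:**
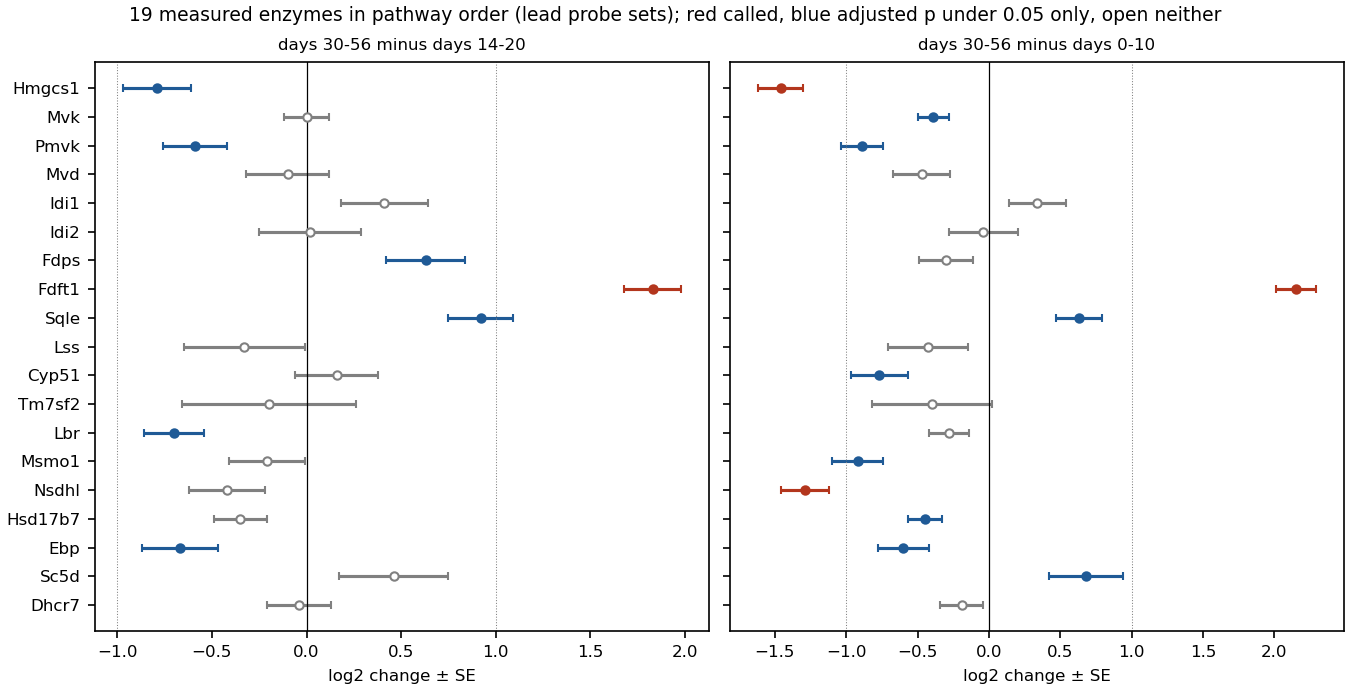
Change on the log2(signal + 16) scale (horizontal axis) with its SE (bars) by lead probe set for 19 enzymes in pathway order (vertical axis), from middle to late days on the left and from early to late days on the right, where red marks called changes, blue an adjusted p under 0.05 alone and open grey neither. Fdps, Fdft1 and Sqle lie right of 0 with an adjusted p under 0.05 in the left panel. They are 3 of 19 genes, near the 15.7% of all genes that were higher there by the adjusted p. A second Fdps probe set, 160424_f_at, which is not drawn, changed by 0.08 in that interval (adjusted p = 0.754).

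The control of SREBP was read from 12 genes, 9 of them tested, and 6 of these 9 were called from early to late days, 2 higher and 4 lower, against 35.5% of all genes called. With a pseudocount of 64 the lower genes numbered 3. Among the lower genes, Insig1 and Mbtps2 read under 50 in all late samples and passed the filter only through earlier days. The count is therefore given without weight against the share of all genes. Rnf139, which encodes the ubiquitin ligase TRC8 of the endoplasmic reticulum, ran from 312 through 396 to 540 early, from 609 through 903 to 1208 in the middle and from 4972 through 5512 to 5598 late, and rose by 3.72 ± 0.12 (SE, adjusted p = 2.69e-14). Insig2, the second INSIG gene, ran from 121 through 191 to 416 early, from 480 through 642 to 743 in the middle and from 630 through 729 to 1137 late.

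Insig2 rose by 1.74 ± 0.16 (adjusted p = 2.20e-08), with the change already made by the middle days (1.41 ± 0.16, adjusted p = 1.39e-06). So the INSIG genes went opposite ways from early to late days, with the limits given above for Insig1. Scap, which encodes the escort of SREBP, fell by 1.87 (SE 0.16, adjusted p = 1.75e-08), from a median of 855 early to 230 late. Srebf1 and Mbtps2, named after their values were seen to complete the count, fell by 1.39 (adjusted p = 1.07e-07) and 1.31 (adjusted p = 7.30e-06). They encode the sister factor SREBP-1 and the site-2 protease that frees SREBP from the membrane. Mbtps2 read 66.1 to 126 early and 19.4 to 42.5 late. It passed the filter only through earlier days, so its size is given without weight.

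Markers of several cell types, but not of all, changed over the same days. Of 12 spermatid markers, all 12 were tested and rose from early to late days, against 14.9% of all genes, and their summed signal was 664 to 1875 early, 648 to 1357 in the middle and 43042 to 74105 late. Of 9 pachytene spermatocyte markers 8 were measured and 7 rose, with sums of 565 to 1148, 5554 to 22201 and 21659 to 27468. Over the early samples, 6 of the spermatid and 5 of the pachytene markers averaged under 50, against 0 and 1 over the late samples. Such markers may have passed the filter only through later days, so these 2 counts are given without weight against the share of all genes. Of 8 Leydig cell markers 7 were measured, of which 2 rose and 2 fell from early to late days and 1 rose and 3 fell from early to middle days, with sums of 1095 to 3767, 603 to 1206 and 1743 to 2504. Of 11 Sertoli cell markers, 1 rose and 5 fell from early to late days, with sums of 5437 to 7248, 2911 to 6680 and 2907 to 3496. Of 5 peritubular and smooth muscle markers 3 fell from early to late days, and none of 5 measured macrophage markers was called there. Over all genes, 14.9% were called higher and 20.6% lower from early to late days, and 7.40% and 6.16% from early to middle days. The sums add signals of different probe sets. No marker was at 0 in all samples. The part of these cell types in the member changes was not tested.

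The closest patterns to each member over the 22 arrays of its type are given as descriptions with Pearson's r on the log2 scale, where the arrays share day and sample. Hmgcs1 was closest to Slc38a2, Map3k4 and Tm7sf3, each at 0.96. Insig1, on another array type, was closest to another probe set of Slc38a2 (0.95), to Rbm12 (0.95) and to Tnks2 (0.94). Sqle was closest to Penk (0.88), Glns-ps1 (0.84) and Mprip (0.83). Fdps was closest to Aldoa (0.87), Grcc10 (0.86) and Tubb2a (0.78), Idi1 to Acyp2 (0.87), Matr3 (0.87) and Mtf2 (0.86), and Cyp51 to 2510009E07Rik (0.89), Rnaseh2b (0.87) and Pdlim2 (0.86).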

How the data were processed

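Total testis RNA was isolated with TRIzol and hybridised to 3 array types. The deposited values are linear signal intensities, which the authors scaled to a mean signal of 125, per the labels. The 2% trimmed mean of each array lay between 125.0 and 125.1. The software behind the signals is not given in the sources used here. Control probe sets were left out. Signals were tested on log2(signal + 16) with limma 3.58.1 in R 4.3.3 (11 day means, eBayes with trend), per array type, in probe sets at 50 or more on at least 2 arrays. P-values were adjusted over all types by the Benjamini-Hochberg method. Probe sets were named through the platform annotation where it gave 1 gene (29131 of 36899). The fit was tested on simulated data. The lists, the members and the rule for named genes (all member probe sets, up to 4 called genes a list by size, the 3 closest patterns) were chosen with earlier results of these data known. Sample numbers were not treated as pairs. Alternatives were other pseudocounts, a floor, other filters, quantile and median scaling, 1 probe set per gene, a replicate block, no trend, and leaving out each sample or days 0 and 20.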

Additional observations from a re-analysis of the deposited data

How the results depend on the processing

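With 2 samples a day, single steps were weakly resolved, and arrays of 3 types limit comparisons between genes to those on 1 type. Most counts of called probe sets stayed within 1.5 times under the alternatives. A pseudocount of 64 gave 1528 probe sets from early to middle days (2880 in the main setting), 1875 from middle to late (3526), 4852 from early to late (7974) and 406 from day 0 to days 6 to 10 (782). One probe set per gene, with 13472 tested, gave 1830, 2227, 4776 and 521, and 7751 for the F-test (12132). Median scaling changed the split from early to late days from 3150 higher and 4824 lower to 3850 and 3398.

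The 6 calls between days 30 and 35 and day 56 became 26 and 20 with pseudocounts of 1 and 64, 61 with a floor of 32, 14 after quantile normalization or a filter of 125, 11 with median scaling, 10 with 1 probe set per gene, 34 without days 0 and 20 and 13 without the trend. Leaving out each sample gave 0 to 32 there, 1610 to 3652 for the 10 steps (2283; the highest without sample 1 of day 20), 10964 to 12857 for the F-test, 2874 to 3031 from early to middle, 3471 to 3697 from middle to late, 7919 to 8096 from early to late, 637 to 1145 for day 0, and 5 to 6 of the gene pairs. Without days 0 and 20 the day 0 comparison and the steps have no value.

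The labels give the numbers no meaning, and the deviations of same-numbered samples correlated over 0.1 in 28, 34 and 23 of 55 day pairs on types A, B and C, and over 0 in 43, 52 and 46, so the numbers were not used as a pairing and a weak shared effect is not shown to be absent. With the replicate number as a block the counts were 13148 for the F-test, 2896, 3553, 8008 and 898 for the 4 comparisons above, 75 for day 56 and 2701 for the steps, and 6 of 7 gene pairs passed as before. With other kept probe sets, 10 of 15 pairs passed. The 10 include Fdps 165982_i_at against Cyp51 137321_at, where the first passed the filter only through later days and the second only through early days. They also include pairs with Fdps 162281_at and Insig1, so the count is given without weight. With the dim Fdps 162281_at in place of the lead, 2 of 3 pairs turned sign and Hmgcs1/Fdps kept it (-2.29): Idi1/Fdps was -0.49 (adjusted permutation p = 0.156) and Fdps/Sqle 0.21 (adjusted permutation p = 0.474). The cause was not tested.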

Other observations

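Genes around sterol synthesis were read from further lists, from early to late days. Called lower were Cyb5b and Pgrmc1 of 5 measured electron donors and carriers, and Dhdds, Rabggtb and Zmpste24 of 10 other users of isoprenoids. So were Cyp39a1 of 4 bile acid and sterol hydroxylases, and Creb1 and Prkacb of 6 CREM and cAMP regulators. None on these lists was called higher. Over all genes, 20.6% were lower and 14.9% higher. Their levels are not given here, so these counts carry no weight. Of 13 fatty acid synthesis genes, 4 were called lower and none higher, against 20.6% and 14.9% of all genes. Mlxipl, the carbohydrate-response factor ChREBP, was at -1.68 ± 0.28 on the log2 scale (SE), Scd2 at -1.57 ± 0.12, Elovl6 at -1.25 ± 0.16 and Fasn, fatty acid synthase, at -1.19 ± 0.12. With median scaling, 3 fell and 1 rose, and Fasn was at -0.97. Acly, which supplies cytosolic acetyl-CoA, fell by 1.55 (SE 0.12, adjusted p = 6.84e-09).

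Of 13 measured genes that are other SREBP-2 targets or act in sterol transport, 2 were called higher and 2 lower. Over all genes, 14.9% were called higher and 20.6% lower. By the adjusted p alone, 3 of the 13 were higher and 8 lower, against 24.4% and 41.6% of all genes. Lpin1, a phosphatidate phosphatase, rose by 2.74 ± 0.21 (SE, adjusted p = 2.15e-09), and Mylip, which marks the LDL receptor for breakdown, was at -1.14 ± 0.21. The other gene called higher, Nr1h3, the sterol receptor LXR-alpha, read 3.8 to 22.8 early and 82.8 to 135 late. Of 4 measured cholesterol ester genes, only Lipe, hormone-sensitive lipase, was called, against 35.5% of all genes called in either direction. Lipe read 6.9 to 41.4 early, 5.8 to 31.2 in the middle and 184 to 332 late. Nr1h3 and Lipe reached 50 on no early array and passed the filter only through later days, so no size is given for them.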
